A study of Mus musculus with 21 samples.

Results

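The miR-290 cluster is a run of miRNA hairpins on mouse chromosome 7 that is transcribed as 1 primary RNA. The 8 mature products described here are mmu-miR-290a-5p, mmu-miR-290a-3p, mmu-miR-291a-3p, mmu-miR-292a-5p, mmu-miR-292a-3p, mmu-miR-293-3p, mmu-miR-294-3p and mmu-miR-295-3p. They were taken by name from the 1556 mature miRNA entries of the deposited table, with earlier results of these data known. Small RNA had been sequenced from 7 kinds of primary C57BL/6J mouse cells, with 3 libraries each and 21 in all. The kinds were germ cells (of a stage that the labels do not give), the peritubular myoid (PTM) cells that line the seminiferous tubule, the Sertoli cells that nurse the germ cells, the hormone-making Leydig cells, and smooth muscle cells of blood vessel (VSMC), intestine (ISMC) and trachea (TSMC). All were cultured in DMEM/F12 with fetal bovine serum and received no treatment. The testicular cells were isolated for the study, whereas the smooth muscle cells were bought. Age, sex and the number of animals are not given, so the 3 libraries of a kind may be technical replicates, and p-values measure only the spread between them.

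In mouse embryonic stem cells the miR-290 cluster provides a large part of all miRNA. It is switched on by the core pluripotency factors and is silenced as cells differentiate. Several of its 3p products share a seed, the stretch near the 5′ end that pairs with target mRNAs, with the miR-302 family. These products speed entry into S phase by lowering inhibitors of the cell cycle such as Cdkn1a. Mouse embryos without the cluster are partly lost, and those that survive have too few germ cells.

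In mm10 (GRCm38), the 7 sense hairpins of the cluster occupy chr7:3218626-3220841 on the plus strand, a span of 2216 bp, in the order Mir290a, Mir291a, Mir292, Mir291b, Mir293, Mir294 and Mir295. A pair of further hairpins, Mir290b and Mir292b, lies on the minus strand within it. Apart from Mir290a and Mir290b, the hairpins lie inside the minus-strand gene Nlrp12 (chr7:3218784-3249740), where each overlaps an exon annotated as untranslated and none overlaps coding sequence. The mature sequences of 7 of the 8 members, all but miR-292a-3p, were found in RefSeq (GRCm38.p6) and are shown to compare their seeds, with bases 2 to 8 in capitals.
mmu-miR-291a-3p: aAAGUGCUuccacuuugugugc
mmu-miR-294-3p: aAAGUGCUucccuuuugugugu
mmu-miR-295-3p: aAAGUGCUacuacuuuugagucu
mmu-miR-290a-3p: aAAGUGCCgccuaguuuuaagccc
mmu-miR-293-3p: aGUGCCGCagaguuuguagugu
mmu-miR-290a-5p: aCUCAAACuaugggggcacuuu
mmu-miR-292a-5p: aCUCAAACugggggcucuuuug
The seed AAGUGCU was common to miR-291a-3p, miR-294-3p and miR-295-3p. Among the mature miRNAs of RefSeq it also occurred in miR-302b-3p and miR-302d-3p; the table used has no entry for miR-292a-3p or miR-302a-3p. miR-290a-3p ended its seed in another base (AAGUGCC), and miR-293-3p had the seed GUGCCGC, which no other entry shared. The 5p products miR-290a-5p and miR-292a-5p shared CUCAAAC with miR-293-5p. In mouse fibroblasts the members with the seed AAGUGCU are known to raise the yield of induced pluripotent cells, an effect not seen with miR-293.

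Libraries held 18.1 to 26.1 M tags (M, 1e6 tags) of all small RNA classes. Mature miRNAs took 2.93 ± 0.89% of them in germ cells (SD, n = 3) and 44.6 ± 10.8% in the other types (SD, n = 18), which left 0.525 to 0.958 M mature tags per germ cell library and 4.04 to 14.6 M per other library. The germ cell libraries therefore stand apart, and 1 tag weighs more there, 1.91 CPM (counts per 1e6 mature tags) in germ cell library 1. Levels are given below both per 1e6 mature tags and per 1e6 tags of all classes, because the order of the types depends on this choice. The spermatogenic miR-34b, miR-34c and miR-449a summed to 257800 to 330200 CPM in germ cells and to 199 to 1273 CPM in the other 18 libraries. Smooth muscle miR-143-3p and miR-145a-5p summed to 29410 to 45740 CPM in Sertoli cells and 19620 to 23870 CPM in PTM cells, against 4517 to 20400 CPM in the 3 smooth muscle types. The pluripotency-associated miR-302 products had 0 to 3 tags per germ cell library and 0 to 10 per other library. These are bulk samples, in which fewer cells of a kind and less RNA per cell cannot be told apart.

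All 8 members were rare. They held 2840 tags over the 21 libraries, of which miR-292a-3p had 1691 (59.5%), miR-293-3p 815 (28.7%), miR-294-3p 171 (6.02%), miR-292a-5p 79 (2.78%) and miR-295-3p 69 (2.43%). miR-290a-5p had 8 tags, miR-291a-3p had 4 and miR-290a-3p had 3. Tags of miR-292a-3p and miR-293-3p were present in all 21 libraries, tags of miR-294-3p and of miR-292a-5p in 17, and tags of miR-295-3p in 15. By mean level, miR-292a-3p ranked 150 of the 942 mature miRNAs detected in germ cells, 330 of 1246 in PTM cells and 325 of 1207 in Sertoli cells. It ranked 382 of 1231 in Leydig cells, 577 of 1227 in VSMC, 600 of 1190 in ISMC and 424 of 1180 in TSMC.

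**Figure D1:**
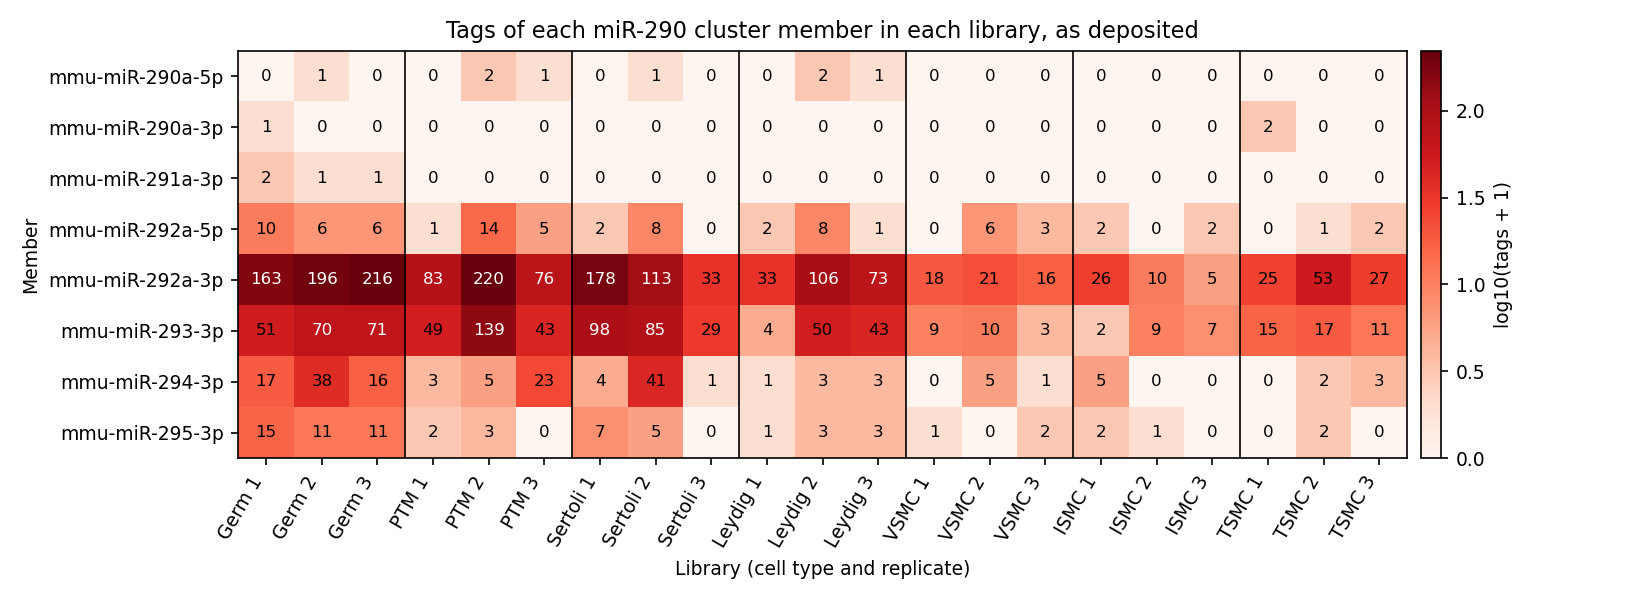
Tags of the 8 members (rows) in each of the 21 libraries (columns, by cell type and replicate), printed as deposited and coloured on a log10(tags + 1) scale. miR-292a-3p and miR-293-3p fill every column, while miR-291a-3p has tags in germ cells only, with 2, 1 and 1.

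Of the members, miR-292a-3p was the most abundant in every type. In germ cells it had 163, 196 and 216 tags, or 311, 205 and 281 CPM. The 3 PTM libraries had 83, 220 and 76 tags (10.2, 25.5 and 12.3 CPM), and the Sertoli libraries had 178, 113 and 33 tags (19.9, 9.98 and 8.16 CPM). Each germ cell library lay above every other library in CPM, although the tag numbers themselves overlapped. The share of all miRNAs whose germ cell libraries lie apart in this way was not counted, here or for the other members and their sum. In Leydig cells it had 212 tags over the 3 libraries (2.65, 11.1 and 5.88 CPM). The smooth muscle types held the fewest, with 18, 21 and 16 tags in VSMC, 26, 10 and 5 in ISMC, and 25, 53 and 27 in TSMC, which is 0.704 to 5.89 CPM. miR-292a-3p averaged 265 ± 54.6 CPM in germ cells, 16.02 ± 8.29 in PTM, 12.7 ± 6.30 in Sertoli, 6.53 ± 4.24 in Leydig, 4.80 ± 0.95 in TSMC, 1.49 ± 1.03 in ISMC and 1.39 ± 0.14 in VSMC (SD, n = 3 each).

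miR-293-3p, the member with a seed of its own, followed the same order. Its tags were 51, 70 and 71 in germ cells (97.2, 73.1 and 92.3 CPM), 49, 139 and 43 in PTM cells (6.05, 16.1 and 6.95 CPM) and 98, 85 and 29 in Sertoli cells (10.9, 7.50 and 7.17 CPM). Leydig cells had 4, 50 and 43 tags, so that Leydig library 1, at 0.321 CPM, lay below all TSMC libraries while the other 2 Leydig libraries, at 5.22 and 3.46 CPM, lay above them. VSMC had 9, 10 and 3 tags, ISMC 2, 9 and 7, and TSMC 15, 17 and 11, which is 0.205 to 2.49 CPM. As for miR-292a-3p, no other library reached the germ cell libraries in CPM.

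miR-294-3p, which carries the seed AAGUGCU and is a known S-phase promoter of mouse embryonic stem cells, had 17, 38 and 16 tags in germ cells (32.4, 39.7 and 20.8 CPM). PTM cells had 3, 5 and 23 tags and Sertoli cells 4, 41 and 1, so a single library supplied most of the tags of each of these types, at 3.72 CPM in PTM library 3 and 3.62 CPM in Sertoli library 2. Without those 2 libraries, PTM and Sertoli cells lay at 0.247 to 0.58 CPM. In Leydig cells and the smooth muscle types no library had more than 5 tags.

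miR-295-3p, with the same seed, had 15, 11 and 11 tags in germ cells (28.6, 11.5 and 14.3 CPM). Counts elsewhere were 2, 3 and 0 in PTM, 7, 5 and 0 in Sertoli, and 1, 3 and 3 in Leydig cells. The smooth muscle types had 3 tags in VSMC, 3 in ISMC and 2 in TSMC over 3 libraries each. At these numbers the tags of each type were pooled. Per mature tag, miR-295-3p was then 218 times higher in germ cells than in VSMC, with a counting interval of 69.0 to 1105 (95%). It was 142 times higher than in ISMC (44.9 to 718) and 174 times higher than in TSMC (45.0 to 1493). These intervals cover counting error only, and they were not computed per tag of all classes. With tags of all classes as the denominator, mean CPM was 0.479 in germ cells, 0.0457 in VSMC, 0.0477 in ISMC and 0.0351 in TSMC. miR-295-3p reached 10 tags in the germ cell libraries only, so it was kept for testing through the type in which it was high. The ratios and intervals are therefore given as values only.

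**Figure D2:**
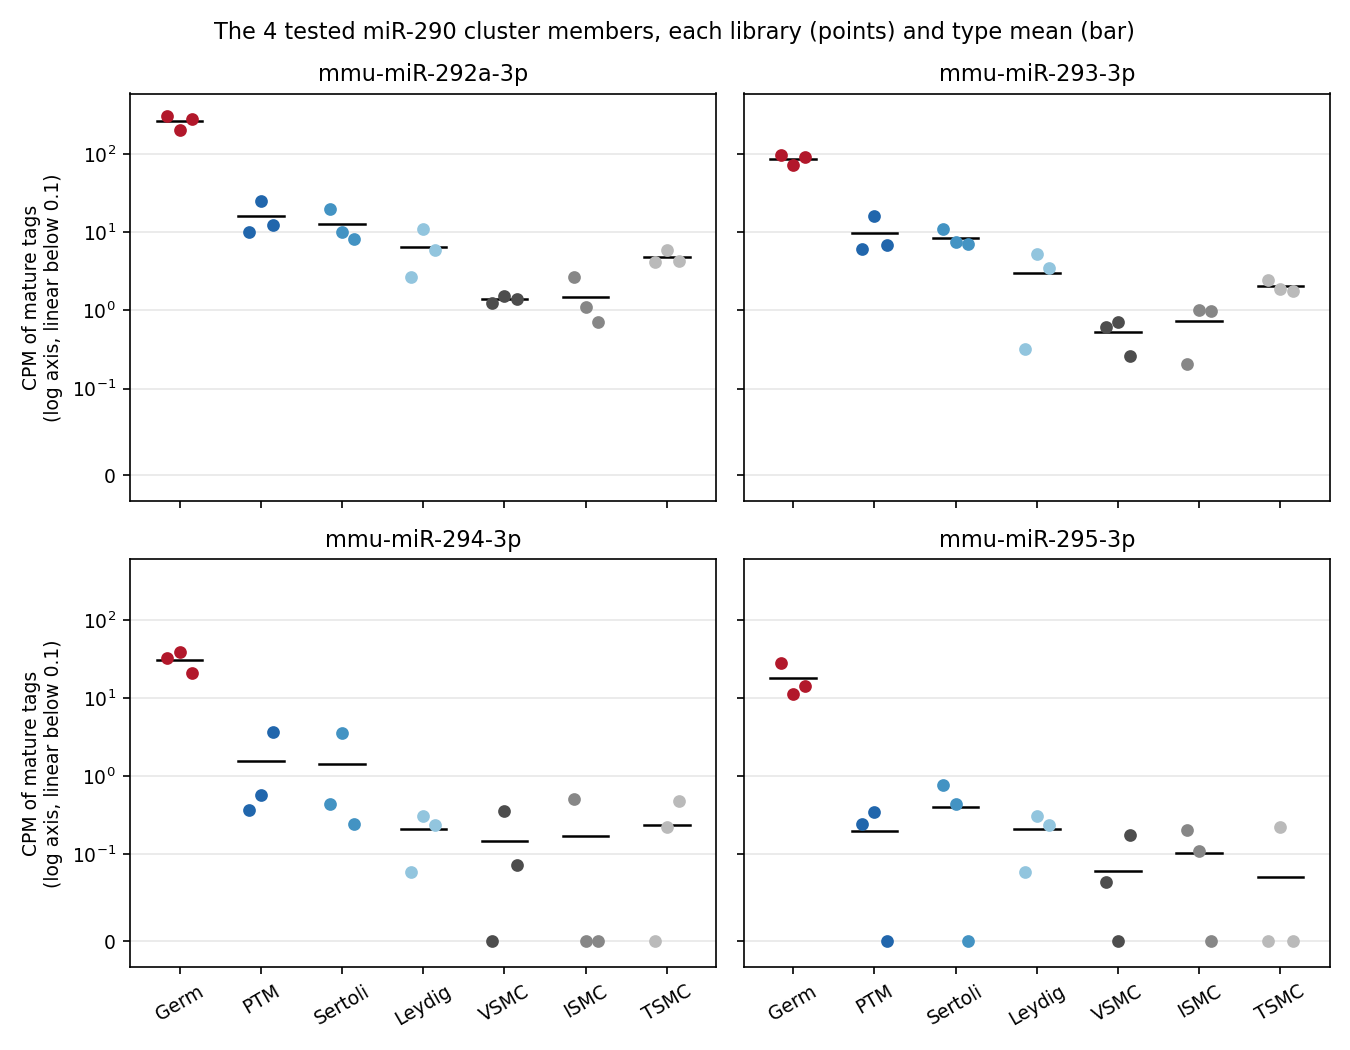
Level of the 4 tested members in each library, in CPM of mature tags (vertical axis, logarithmic above 0.1 and linear below), by cell type; points are libraries and bars are means of 3. The 3 germ cell points lie above every other point in each panel, from 11.5 CPM for miR-295-3p to 311 CPM for miR-292a-3p. How many of all miRNAs separate in this way was not counted, and miR-294-3p and miR-295-3p passed the minimum for testing through germ cells. Per tag of all classes, germ cell libraries overlapped those of PTM and Sertoli cells for miR-292a-3p, miR-293-3p and miR-294-3p.

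The other 4 members were too sparse to test. miR-291a-3p, the third member with the seed AAGUGCU, had 2, 1 and 1 tags in germ cells and 0 in the other 18 libraries. Per mature tag, the lower 95% counting limit of its pooled germ cell level over that of another type was 6.22-fold for TSMC and 11.67-fold for VSMC, with the other types in between. These limits rest on 4 tags and on the mature totals, which are lowest in germ cells. They were not computed per tag of all classes, where the germ cell libraries are the deepest (25.2 to 26.1 M tags, others 18.1 to 23.3 M). miR-292a-5p, the 5p arm of the hairpin that yields miR-292a-3p, had 10, 6 and 6 tags in germ cells, 1, 14 and 5 in PTM, 2, 8 and 0 in Sertoli and 2, 8 and 1 in Leydig cells. The smooth muscle libraries had 0 to 6. miR-290a-5p had at most 2 tags in any library, and its 8 tags came from germ, PTM, Sertoli and Leydig cells. miR-290a-3p had 1 tag in germ cells and 2 in TSMC, so both arms of the first hairpin of the cluster were near the limit of detection.

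Detection depended on depth. A tag was seen for 8 members in germ cells, 6 each in PTM, Sertoli, Leydig and TSMC, and 5 each in VSMC and ISMC, although the germ cell libraries held the fewest mature tags. When every library was thinned at random to 524769 mature tags, the lowest total, germ cells kept 7 members and 664 member tags, against 4 members and 39 tags in PTM, 3 and 31 in Sertoli, 4 and 18 in Leydig, 1 and 1 in VSMC, 2 and 2 in ISMC and 2 and 12 in TSMC cells. Thinning to equal mature totals keeps the mature tag as the unit, so it is not independent of that denominator. Per 1e6 tags of all classes, the summed members averaged 11.7 in germ, 11.3 in PTM and 9.70 in Sertoli cells.

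The first comparison asked whether the members differed among the 7 types. Of the members, 4 passed the minimum of 10 tags in at least 3 libraries, and all 4 were called (edgeR quasi-likelihood F test, Benjamini-Hochberg adjusted over 846 miRNAs), but so were 80.7% of all miRNAs tested. Adjusted p was 3.0e-09 for miR-292a-3p, 2.0e-07 for miR-293-3p, 1.6e-05 for miR-294-3p and 2.9e-06 for miR-295-3p. The last 2 were measured at the edge: miR-294-3p reached 10 tags in the 3 germ cell libraries and 2 others, and miR-295-3p in the germ cell libraries only, so both passed the minimum through the type in which they were high and had to differ. Their germ cell comparisons are given below as values and are not counted.

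Germ cells were then set against each other type, in 6 comparisons that share the germ cell libraries. miR-292a-3p and miR-293-3p, the 2 members that pass the minimum without the germ cell libraries, were called higher in germ cells than in each of the 6 types (12 of 12 tests), where 16.2% of the 846 miRNAs were called higher than in PTM, 18.2% than in Sertoli, 20.9% than in Leydig, 24.2% than in VSMC, 25.3% than in ISMC and 25.9% than in TSMC. Against PTM cells, the log2 fold change was 2.82 ± 0.59 for miR-292a-3p (SE, edgeR adjusted p = 0.00038) and 1.94 ± 0.68 for miR-293-3p (adjusted p = 0.019). For miR-294-3p and miR-295-3p it was 3.27 ± 1.02 and 5.02 ± 1.001, given as values only. Without PTM library 3, that of miR-293-3p was 1.65 and no longer called (adjusted p = 0.078). Over all miRNAs tested the median was -1.79. TMM gave the germ cell libraries factors of 1.26 to 2.54 and the others 0.632 to 1.14, so these fold changes are smaller than plain CPM ratios. With mature totals as library size, miR-292a-3p stood at 4.05 and the median of all miRNAs at -0.64. Over all miRNAs, 137 were called higher and 345 lower in germ than in PTM cells with TMM, 200 and 202 with mature totals, 198 and 204 with RLE factors, and 53 and 615 with tags of all classes.

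Against Sertoli cells, the 4 log2 fold changes were 2.26 to 4.01 (median of all miRNAs -1.14). That of miR-294-3p, 2.94 ± 1.001 and given as a value only, was 2.48 without Sertoli library 1 (edgeR adjusted p = 0.068). Against Leydig cells they were 3.54 to 5.71 (median of all miRNAs -2.14). In smooth muscle comparisons, miR-292a-3p was higher in germ cells by 6.81 ± 0.72 against VSMC, 6.68 ± 0.72 against ISMC and 5.01 ± 0.66 against TSMC on the log2 scale (edgeR adjusted p = 6.5e-08, 9.4e-08 and 1.2e-06). miR-293-3p was higher by 6.54 ± 0.84, 6.18 ± 0.84 and 4.62 ± 0.77 against the same types. miR-294-3p, which had 5 or 6 tags in each smooth muscle type, stood at 6.72 ± 1.23, 6.41 ± 1.24 and 6.08 ± 1.24.

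The comparison of germ cells with PTM and Sertoli cells depended on the denominator. Summed over the 8 members, germ cell libraries had 494, 337 and 417 CPM of mature tags, a mean of 416 ± 78.2, against 28.5 ± 14.3 in PTM, 23.4 ± 8.39 in Sertoli, 10.4 ± 7.33 in Leydig, 7.42 ± 0.80 in TSMC, 2.66 ± 0.98 in ISMC and 2.38 ± 0.58 in VSMC (SD, n = 3 each). The germ cell mean was 14.6 times that of PTM, 17.8 times that of Sertoli, 40.0 times that of Leydig, 56.1 times that of TSMC, 156 times that of ISMC and 175 times that of VSMC cells, and no library of another type overlapped the germ cell libraries. Per 1e6 tags of all classes, however, germ cells had 9.99, 12.8 and 12.3, a mean of 11.7 ± 1.51, against 6.604, 20.2 and 7.15 in PTM cells (11.3 ± 7.69) and 13.7, 12.0 and 3.45 in Sertoli cells (9.70 ± 5.48). On this scale the ratio to germ cells shrank to 1.04 for PTM and 1.21 for Sertoli, with overlapping libraries. It was 2.37 for Leydig, 4.09 for TSMC, 8.37 for VSMC and 10.1 for ISMC, with no overlap for these 4 types.

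**Figure D3:**
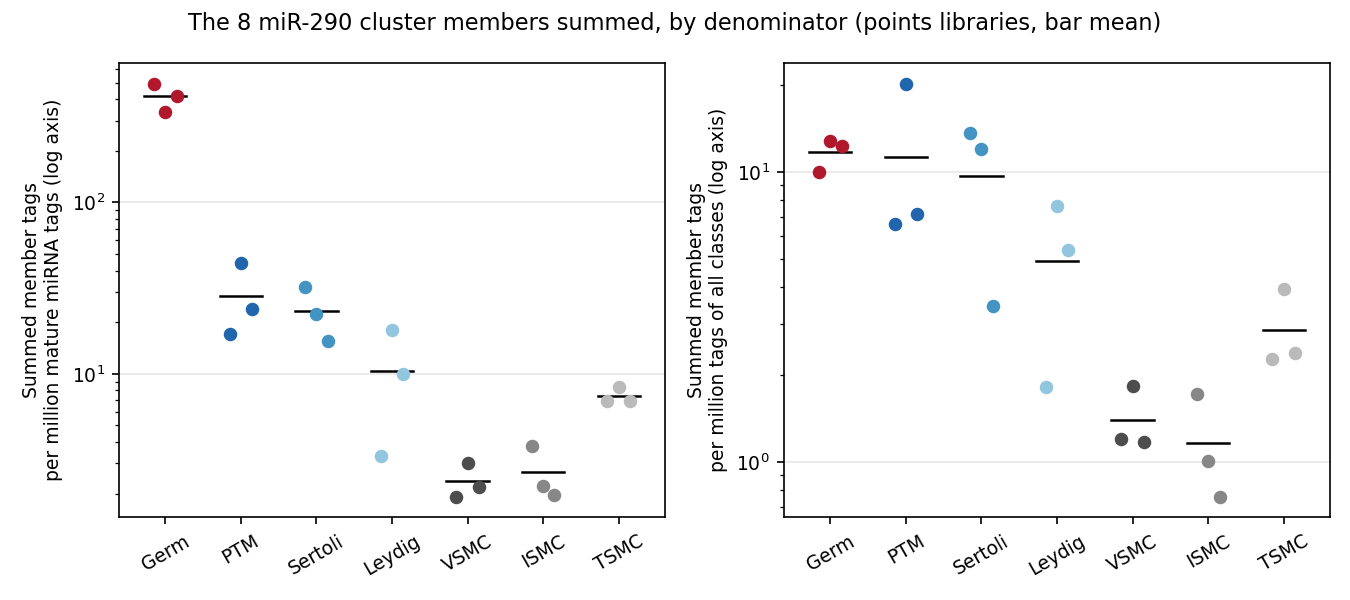
Summed tags of the 8 members per 1e6 mature miRNA tags (left) and per 1e6 tags of all small RNA classes (right), both on logarithmic axes, by cell type; points are libraries and bars are means of 3. On the left germ cells average 416 and PTM cells 28.5, whereas on the right they average 11.7 and 11.3 and their points overlap.

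The same held for single members when tags of all classes served as library size in edgeR. The log2 fold change of germ over PTM cells was then 0.22 ± 0.61 for miR-292a-3p (adjusted p = 0.75), 0.86 ± 1.05 for miR-294-3p (adjusted p = 0.46) and -0.65 ± 0.69 for miR-293-3p (adjusted p = 0.39), the last with its sign turned. Neither miR-292a-3p nor miR-293-3p was called against PTM, Sertoli or Leydig cells. None of the 4 was called against Sertoli cells, where miR-293-3p also changed sign to -0.46 ± 0.69. miR-295-3p stood at 2.44 ± 1.08 against PTM cells and miR-294-3p at 3.10 ± 1.21 against Leydig cells. Both passed the minimum through germ cells, so these values are not counted as calls that held. miR-292a-3p and miR-293-3p were called higher in germ cells than in each of the 3 smooth muscle types under both library sizes, so that 6 of their 12 calls held. The share of all miRNAs called higher than in smooth muscle was not counted with tags of all classes, so these 6 calls have no background there. Against PTM cells 53 of 846 miRNAs were called higher on this scale. The median of germ minus PTM cells over all miRNAs tested was -4.09 on this scale.

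**Figure D4:**
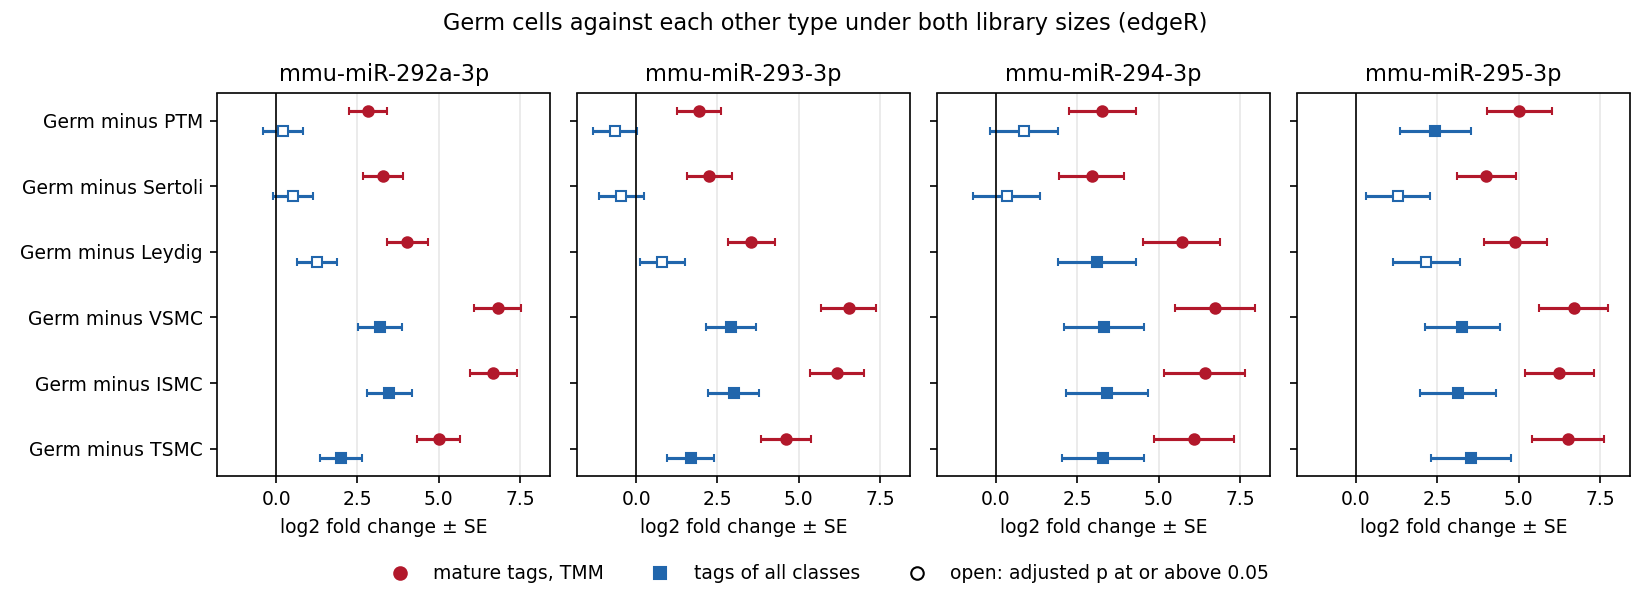
Log2 fold change of germ cells minus each other type (horizontal axis, ± SE) for the 4 tested members with mature tags and TMM (red circles) and with tags of all classes as library size (blue squares); open symbols have an adjusted p of 0.05 or more. Against PTM and Sertoli cells the blue squares of miR-292a-3p lie at 0.22 and 0.52, while those against smooth muscle lie between 1.99 and 3.48. The points of miR-295-3p against smooth muscle rest on 2 or 3 tags in that type. miR-294-3p and miR-295-3p passed the minimum through germ cells, so their points are values only.

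PTM cells, which the study set against other testicular cells and smooth muscle, held more of the 2 most abundant members than each smooth muscle type by edgeR with mature tags and TMM, and no call separated them from Sertoli or Leydig cells. Against VSMC, miR-292a-3p was higher in PTM cells by 3.99 ± 0.64 on the log2 scale (edgeR adjusted p = 2.8e-05), miR-293-3p by 4.61 ± 0.78 (adjusted p = 5.5e-05) and miR-294-3p by 3.45 ± 1.17 (adjusted p = 0.020). That made 3 of 4 members, where 25.2% of all miRNAs were called higher. Against ISMC the same 3 were called, miR-292a-3p at 3.86 ± 0.64 and miR-293-3p at 4.24 ± 0.78 (background 23.4%). Against TSMC 2 were called, miR-292a-3p at 2.18 ± 0.59 (adjusted p = 0.0052) and miR-293-3p at 2.68 ± 0.72 (adjusted p = 0.0048), with a background of 22.8%. Without PTM library 2, miR-292a-3p against TSMC was 1.45 and no longer called (adjusted p = 0.053). Without PTM library 3, miR-294-3p was 2.11 against VSMC (adjusted p = 0.22) and 1.80 against ISMC (adjusted p = 0.32). The call of miR-294-3p against VSMC was also lost without VSMC library 1 (2.91) or 3 (3.26), and that against ISMC was lost in 10 of the 21 fits that left out 1 library (1.80 to 3.07). Both calls of miR-294-3p were lost with tags of all classes as library size and after thinning to the lowest mature total. The calls of miR-292a-3p and miR-293-3p against all 3 types held with tags of all classes, but those against TSMC were lost after thinning (1.73, adjusted p = 0.085, and 2.41, adjusted p = 0.062).

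Sertoli cells were also set against smooth muscle, with 4 members higher than in VSMC, 3 higher than in ISMC and 3 higher than in TSMC, beside 23.4%, 21.5% and 20.6% of all miRNAs. miR-292a-3p stood at 3.52 ± 0.62, 3.39 ± 0.63 and 1.71 ± 0.58 in these comparisons and miR-293-3p at 4.29 ± 0.77, 3.92 ± 0.77 and 2.36 ± 0.71 (log2, ± SE). The call of miR-292a-3p against TSMC was lost without Sertoli library 1 (1.34), TSMC library 1 (1.56) or TSMC library 3 (1.61), and also with tags of all classes as library size (1.47, adjusted p = 0.073), with no filter (1.49, adjusted p = 0.059) and after thinning (1.33, adjusted p = 0.21). That of miR-293-3p against TSMC was lost after thinning (2.19, adjusted p = 0.099). Without Sertoli library 2, which held most of its tags, miR-294-3p was 1.44 against VSMC, 1.13 against ISMC and 0.80 against TSMC, and none of these was called. With tags of all classes, and after thinning, none of its 3 calls held. Its call against ISMC was also lost without ISMC library 2 (2.91) or 3 (2.87), and that against TSMC in 10 of the 21 fits that left out 1 library (0.80 to 3.90). The call of miR-295-3p against VSMC (2.68 ± 1.07, adjusted p = 0.048) was lost in 6 of those fits (2.11 to 2.69). Leydig cells had 2 members higher than in VSMC and in ISMC, miR-292a-3p at 2.78 ± 0.61 and 2.65 ± 0.61 and miR-293-3p at 2.997 ± 0.75 and 2.63 ± 0.75, where 21.5% and 22.9% of all miRNAs were called. Against ISMC, miR-293-3p was no longer called without Leydig library 2 (2.07) or ISMC library 1 (2.13). After thinning, the calls of miR-293-3p against VSMC (2.92, adjusted p = 0.075) and of miR-292a-3p against ISMC (2.91, adjusted p = 0.062) were lost. Against TSMC none of the 4 was called (background 22.1%), and the lowest adjusted p was 0.20.

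No member was called between types next to each other in level, other than germ and PTM cells. Between PTM and Sertoli cells none of the 4 members was called by edgeR in either direction (log2 fold changes -1.01 to 0.47, lowest adjusted p 0.74, no unadjusted p below 0.05), where 11.3% of all miRNAs were. miR-292a-3p stood at 0.47 ± 0.56 (SE) for PTM minus Sertoli cells, which leaves room for a difference in either direction. Between PTM and Leydig cells 0 of 4 were called (lowest adjusted p 0.10; 3 unadjusted p-values below 0.05), with a background of 16.5%. Between Sertoli and Leydig cells 0 of 4 were called (lowest adjusted p 0.086; 1 unadjusted p-value below 0.05), with a background of 25.4%. Among the smooth muscle types few miRNAs differed at all, 1.3% between VSMC and ISMC, 3.31% between VSMC and TSMC and 0.946% between ISMC and TSMC, and none of the 12 member tests was called (lowest adjusted p 0.098). The lowest of these belonged to miR-292a-3p, with a log2 fold change of -1.80 ± 0.60 for VSMC minus TSMC. Its VSMC libraries held 1.24 to 1.52 CPM and its TSMC libraries 4.15 to 5.89 CPM, without overlap. How many of all miRNAs separate these types in this way was not counted.

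With the 3 germ cell libraries left out of the fit and the same miRNAs tested, 19 of the 22 calls between the other 6 types remained and none was gained. The 3 lost were miR-294-3p in PTM against ISMC and in Sertoli against TSMC, and miR-295-3p in Sertoli against VSMC.

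The level of the members in PTM and Sertoli cells was set beside that of markers of other cells, first the spermatogenic ones. The 8 members reached 6.84% of the germ cell CPM in PTM cells and 5.62% in Sertoli cells, while the summed miR-34b, miR-34c and miR-449a reached 0.176% and 0.204%. In the smooth muscle types the members reached 0.573 to 1.78% and these markers 0.202 to 0.287%. The spermatogenic sums were 381 to 635 CPM in PTM and 199 to 810 CPM in Sertoli cells, against 456 to 899 CPM in smooth muscle, and these ranges overlapped. The summed epithelial markers (miR-200a, miR-200b, miR-200c, miR-141 and miR-429) had, like the members, their highest mean in germ cells, then in PTM, Sertoli and Leydig cells: 847 to 985 CPM in germ, 105.9 to 281 in PTM, 101.5 to 238 in Sertoli and 17.5 to 22.6 CPM in Leydig cells, against 4.48 to 17.1 CPM in smooth muscle. All 5 had tags in the testicular types, and miR-141-3p was at 0 in the 3 smooth muscle types. The 5 haematopoietic markers summed to 515 to 540 CPM in germ, 266 to 920 in PTM, 140.5 to 206 in Sertoli and 78.3 to 165 CPM in Leydig cells, against 36.8 to 341 CPM in smooth muscle; miR-142a-5p was at 0 in Leydig cells and TSMC, and miR-142a-3p in TSMC. Endothelial miR-126a-3p and miR-126a-5p summed to a mean of 1014 CPM in germ, 1406 in PTM, 271 in Sertoli and 188 CPM in Leydig cells. In VSMC, ISMC and TSMC their sum averaged 3619, 1330 and 213 CPM. The part of germ, epithelial, haematopoietic or endothelial cells in the levels of the members was not tested. miR-293-3p was at 11.1% of its germ cell level in PTM and 9.76% in Sertoli cells, and miR-295-3p at 1.09% and 2.25%.

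The make-up of the member tags was compared by library. miR-292a-3p made up 60.7 to 67.3% of the member tags in the germ cell libraries (63.7% of 903 pooled tags), against 51.4 to 60.1% in the PTM libraries (56.7% of 669) and 44.7 to 61.6% in the Sertoli libraries (53.6% of 605), so germ and Sertoli libraries overlapped. miR-293-3p made up 19.7 to 22.1% in the germ cell libraries, against 29.05 to 36.3% in PTM and 33.6 to 46.03% in Sertoli libraries, without overlap of germ cells with either. The ratio of miR-292a-3p to miR-293-3p was 2.80 to 3.20 in the germ cell libraries, 1.58 to 1.77 in the PTM libraries and 1.14 to 1.82 in the Sertoli libraries, without overlap of germ cells with either. These ratios do not depend on the denominator, but how many other pairs of miRNAs separate germ cells in this way was not counted. Leydig cells (1.70 to 8.25), VSMC (2.0 to 5.33), ISMC (0.714 to 13.0) and TSMC (1.67 to 3.12) overlapped the germ cells, at much lower counts. miR-295-3p was 3.41 to 5.79% of member tags in the germ cell libraries, against 0 to 1.45% in PTM and 0 to 2.42% in Sertoli libraries. It was 1.74 to 2.44% in Leydig, 0 to 2.67% in TSMC, 0 to 8.0% in VSMC and 0 to 5.41% in ISMC libraries. The VSMC and ISMC libraries thus overlapped the germ cells. Outside germ cells these shares rest on 0 to 7 tags per library.

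**Figure D5:**
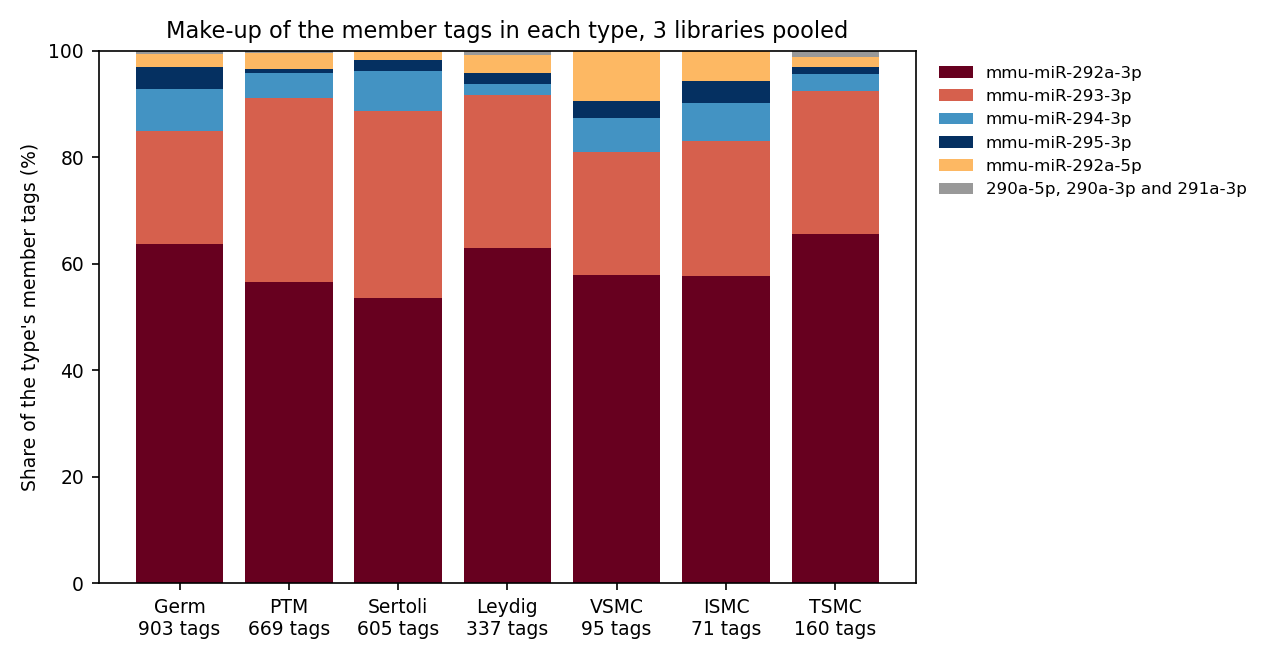
Share of each member among all member tags of a cell type (vertical axis, %), with the 3 libraries of a type pooled and the number of tags under each bar. miR-293-3p takes 21.3% in germ cells, against 34.5% in PTM and 35.04% in Sertoli cells.

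The locus gave 9 further mature products in the table, with 516 tags in all. The most abundant was miR-292b-5p, with 309 tags, which lies on the minus strand opposite the hairpin of miR-292a. The sources do not say whether counting used the strand, so tags of this product and of its antisense partner cannot be told apart. It had 35, 60 and 45 tags in germ cells, 16, 27 and 18 in PTM, 19, 28 and 12 in Sertoli, 0, 3 and 11 in Leydig cells and 0 to 12 in the smooth muscle libraries, and it was higher in germ than in PTM cells by 3.36 ± 0.82 (log2; edgeR adjusted p = 0.0014). With tags of all classes as library size the call was lost (0.83, adjusted p = 0.37), and the germ and PTM libraries overlapped on that scale. The 5p arms of Mir291a and Mir291b were not called between germ and PTM cells. miR-291a-5p had 1, 6 and 3 tags in germ cells, 6, 13 and 9 in PTM, 20, 16 and 3 in Sertoli, 4, 4 and 6 in Leydig, 3, 1 and 1 in VSMC and 0 in all ISMC and TSMC libraries, and germ minus PTM was 0.60 on the log2 scale. Of the 2 arms of Mir291a, the 3p arm was seen in germ cells only (4 tags) and the 5p arm mostly in the other types (86 of 96 tags), which also hold most of the mature tags. miR-291b-5p had 7, 4 and 4 tags in germ cells, 5, 17 and 16 in PTM and 7, 6 and 3 in Sertoli cells, and germ minus PTM was 0.83. The other 6 products had 0 to 2 tags each.

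The seed relatives outside the locus were the miR-302 products and the miR-17 family, whose seed AAAGUGC overlaps AAGUGCU. miR-302a-3p, miR-302b-3p, miR-302c-3p and miR-302d-3p had 13, 21, 4 and 40 tags over all libraries. Of the 10 relatives, 4 were tested, and all 4 were called among the types, as were 80.7% of all miRNAs. Of the 4, 3 were higher in germ cells than in PTM, in Sertoli and in Leydig cells (16.2 to 20.9% of all miRNAs), and 4 higher than in each smooth muscle type (24.2 to 25.9%). The 3 most abundant held more tags in germ cells than any member. miR-93-5p averaged 18390 CPM in germ cells and 1695 CPM in PTM cells (2.27 ± 0.37, log2, edgeR adjusted p = 3.1e-05), miR-20a-5p 1656 and 40.0 CPM (4.27 ± 0.52, adjusted p = 1.5e-06) and miR-17-5p 457 and 35.9 CPM (2.57 ± 0.51, adjusted p = 0.00020). miR-106b-5p, at 23.0 and 4.0 CPM, was not called (1.31 ± 0.61, adjusted p = 0.071). With tags of all classes as library size, only miR-20a-5p was still called higher than in PTM cells (1.58 ± 0.50, adjusted p = 0.0059), while miR-93-5p stood at -0.32 ± 0.41 (adjusted p = 0.48), miR-17-5p at -0.04 ± 0.57 (adjusted p = 0.96) and miR-106b-5p at -1.27 ± 0.67 (adjusted p = 0.084). On that scale miR-93-5p averaged 521 tags per 1e6 in germ, 652 in PTM, 913 in Sertoli and 1084 in Leydig cells, and it was called lower in germ than in Leydig cells (-1.06 ± 0.42, adjusted p = 0.023). As for the members, none of these 4 was called between PTM and Sertoli cells.

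Across the 21 libraries, which share a source within each type, the most abundant members moved together, with a Spearman correlation of log2(CPM + 0.5) of 0.91 between miR-292a-3p and miR-293-3p (0.85 over the 18 libraries other than germ cells). It was 0.59 between miR-294-3p and miR-295-3p (0.35 without germ cells), where many libraries held 0 to 5 tags. Among miRNAs of other loci with at least 10 CPM on average, the 5 entries whose level was most like the summed members were the shared entry of miR-465a-3p, miR-465b-3p and miR-465c-3p (0.95), miR-883a-5p (0.95), miR-878-5p (0.94), miR-465d-3p (0.93) and miR-871-5p (0.93). Per 1e6 tags of all classes, the same correlations were 0.85, 0.93, 0.84, 0.86 and 0.84. Mean miR-883a-5p was 87.5 CPM in germ cells, 5.63 in PTM, 5.66 in Sertoli and 0.123 in Leydig cells, and 0 to 0.037 in the smooth muscle types. These correlations are descriptions over 21 libraries of unequal mature depth.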

How the data were processed

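Small RNA of 7 cell types was sequenced in 21 libraries, 3 per type. Per the labels' protocols, total RNA was extracted with TRNzol and libraries followed a BGI protocol. Per the submitters' processing notes, Bowtie2 and mm10 were used. What is not given in the sources used here includes their roles, adapter removal, strand use, the treatment of tags that fit several entries and the database version. The authors' deposited table gives a whole-number tag count and a TPM value for each entry and library. The deposited TPM values are counts per 1e6 tags of all classes without length correction. They were used only to check each library's total, which was summed from the counts. The total implied by TPM lay up to 1.28% above that sum. Counts of the 1556 mature entries were used as deposited.

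The 8 members were found by name. The members, lists, tests and alternatives were chosen with earlier results of these data known. CPM are counts per 1e6 mature tags. The 846 miRNAs that reached 10 counts in 3 or more libraries were scaled by TMM and fitted in edgeR 4.0.16 under R 4.3.3 (robust quasi-likelihood, 14 residual degrees of freedom, common dispersion 0.2995), all libraries in 1 fit, with 1 test over the 7 types and 1 for each of 21 pairs. A call is a Benjamini-Hochberg adjusted p under 0.05 over all miRNAs tested. The script was tested on simulated counts. Named were the members, the other products of the locus, at most 4 seed relatives by level, and the 5 miRNAs most like the summed members. Alternatives were RLE factors, mature totals, tags of all classes, other filters, DESeq2 1.42.0, a replicate block, thinning to the lowest mature total (524769 tags), each library left out, and, chosen after seeing the data, the germ cell libraries left out. No pair of replicates agreed within sampling noise (lowest chi-square per degree of freedom 161, over 21 pairs). Sequences came from RefSeq and hairpin positions from GENCODE. Counting intervals (95%) cover counting error only.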

Additional observations from a re-analysis of the deposited data

How the results depend on the processing

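The 4 members tested were called among the types in all the alternatives that kept them, but so were most miRNAs. All 4 were called with RLE factors (672 of 846 miRNAs), mature totals (663), tags of all classes (774), DESeq2 (709) or the replicate block (669). After thinning 3 were called (426 of 470 miRNAs). With each library left out 3 to 4 were called, since miR-295-3p misses the minimum without any one germ cell library. Of the 4, miR-294-3p and miR-295-3p passed the minimum through germ cells. Without a filter 6 of 8 members were called (782 of 1544 miRNAs). The 46 calls over 21 pairs fell to 29 with tags of all classes as library size and to 28 after thinning. The 12 calls of pairs that hold PTM cells fell to 7 and 7. Of these 12, 4 were of germ minus PTM cells, with PTM cells the lower type, and they are also among the 24 calls of germ cells. Those 24 (12 of them of miR-294-3p and miR-295-3p, which pass the minimum only through germ cells) fell to 14 with tags of all classes. Other than for germ minus PTM cells, the share of all miRNAs called in a pair was not counted under these alternatives. With each library left out the calls ran from 37 to 48 over 21 pairs, 9 to 13 for PTM cells and 18 to 24 for germ cells. Per 1e6 tags of all classes, the log2 ratio of the summed members in germ cells over each type was 0.049 for PTM (3.87 per mature tag), 0.27 for Sertoli (4.15), 1.24 for Leydig (5.32), 3.06 for VSMC (7.45), 3.34 for ISMC (7.29) and 2.03 for TSMC (5.81). With each library left out, the ratio per mature tag stayed within 3.61 to 4.34 for PTM, 3.93 to 4.46 for Sertoli, 4.90 to 5.97 for Leydig, 7.31 to 7.66 for VSMC, 7.11 to 7.63 for ISMC and 5.67 to 5.94 for TSMC. With tags of all classes the sign turned for germ minus PTM and germ minus Sertoli of miR-293-3p (-0.65 and -0.46), germ minus Leydig of miR-291a-5p (-0.63) and germ minus TSMC of miR-291b-5p (-0.34). This alternative divides by totals of which mature tags are a small part in germ cells.

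Replicate numbers are shared by the types, but the labels give no pairing. Same-numbered libraries had a median correlation of -0.02 over 63 pairs, with 12 of them above 0.1 and the highest at 0.33. A median over all types cannot show whether some of them were paired. With a replicate block, 42 member tests over 21 pairs were called, 11 for PTM cells and 24 for germ cells. The 24 include those of miR-294-3p and miR-295-3p, which pass the minimum only through germ cells. With the block, 135 of 846 miRNAs were called higher in germ than in PTM cells. The share was not counted for the other pairs. Low counts limit the rest: the calls of miR-294-3p in PTM against ISMC and in Sertoli against TSMC were each lost in 17 of 29 alternatives, and that of miR-295-3p in Sertoli against VSMC in 11.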
